A study of Mus musculus with 9 samples.

Results

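The red-cell membrane set held 8 genes, Slc4a1, Sptb, Ank1, Epb42, Rhag, Rhd, Kel and Ermap, of the 36999 genes named on the array. They were chosen by name as proteins of the erythrocyte membrane, and the rule of choice used no measured value, although earlier results of these data were known when they were chosen. Together they had 17 of the 56585 probes that remained after control spots and outlying spots were removed. All 8 genes passed the filter on dim probes, which asked for 1 group with a probe well above background on each of its 3 arrays, so a gene that was bright in a single group passed as well.

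RNA had been extracted from mature megakaryocytes (mMKs) of the bone marrow of male mice, C57BL/6 by the study's methods, to follow their response to total body irradiation (IR). The control group (Ctrl) received no IR, and the other groups were taken 1 day (1 dpi) and 3 days (3 dpi) after a dose of 5 Gy of γ-rays. Each group had 3 arrays from separate experiments with different donors, and neither the age of these mice nor any pooling of animals is given in the sources used here. By the methods, red cells were lysed first, and cells were then enriched by positive selection for CD41 followed by CD42d, which leaves a bulk preparation and not single cells.

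The mature red cell has no nucleus, and its shape and elasticity rest on a net of spectrin under the plasma membrane. Ankyrin ties this net to the anion exchanger band 3, protein 4.2 steadies the contact, and the Rh complex and several blood-group proteins lie in the same membrane. Their transcripts accumulate while erythroblasts mature in the bone marrow, where megakaryocytes and erythroid cells arise from a shared progenitor.

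The levels of 16 megakaryocyte markers were read, and all 16 were well above background on all 9 arrays. Their summed level, on the log2 scale relative to the 75th percentile of each array, was 7.15, 6.99 and 6.97 on the Ctrl arrays, 7.13, 7.02 and 6.99 at 1 dpi, and 7.24, 7.22 and 7.2 at 3 dpi. The brightest of them was Pf4, the chemokine platelet factor 4, whose log2 fold change against Ctrl was 0.09 at 1 dpi and 0.01 at 3 dpi. Itga2b, which encodes CD41, had log2 fold changes of 0.69 and -0.03, and Gp9, a subunit of the von Willebrand factor receptor, had 0.47 and 0.93. Of the 16, 8 were below 0 at 1 dpi, with Gp1ba, another subunit of that receptor, at -0.82 (adjusted p 0.00047), Gp5 at -0.54 (0.013) and Treml1 at -0.33 (0.021), 3 genes named after their values were seen. The median of the list was 0.03 at 1 dpi and 0.1 at 3 dpi, and -0.29 and -0.03 with the array median. With limma, 0 of the 16 were called in any of the 3 comparisons, since none reached the fold minimum, while 8, 8 and 11 had an unadjusted p under 0.05 and 7, 8 and 10 an adjusted p under 0.05 at 1 dpi against Ctrl, at 3 dpi against Ctrl and at 3 dpi against 1 dpi, beside 55.9%, 32% and 44.6% of all genes tested. The methods' t-test with the same fold minimum also called 0 in each after adjustment, whereas scaling to the array median called 1 lower at 1 dpi and 2 higher at 3 dpi against 1 dpi. All 10 neutrophil, 12 macrophage, 10 stromal and 9 T and NK cell markers listed below were also well above background on all 9 arrays. In Ctrl, the mean summed level was 10.28 for the neutrophil markers and 7.04 for the megakaryocyte markers. The megakaryocyte markers therefore do not test the label of the cells.

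Of the spots, 69.1%, 79.5% and 80.8% were well above background on the Ctrl arrays, 72.3%, 74.8% and 75.6% at 1 dpi, and 81.8%, 81.6% and 81.8% at 3 dpi. The 75th percentile itself lay at 10.03, 10.62 and 10.66 (log2 signal) in Ctrl, at 9.33, 9.45 and 9.43 at 1 dpi, and at 10.37, 10.55 and 10.53 at 3 dpi, so the 1 dpi arrays were dimmer than the others. The number of arrays limits the precision of every value. A level below is the log2 signal of a probe minus that percentile of its array, so 0 is a probe at the percentile and a difference of 1 is a 2-fold change. A gene was called when limma's adjusted p over the 29181 genes tested was under 0.05 and the change was at least 2-fold. In counts of genes, fell and rose stand for called lower and called higher. Where a gene had several probes, the one with the highest mean level stood for it.

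At 1 dpi, 6 of the 8 genes were called lower than in Ctrl, and none was called higher. Ank1 (log2 fold change 0.47) and Ermap (0.81) had higher signal but missed the fold minimum. Among all genes tested, 2.85% were called lower and 12.3% higher in that comparison. At 3 dpi, the same 6 genes, Slc4a1, Sptb, Epb42, Rhag, Rhd and Kel, were called lower than in Ctrl, beside 1.8% of all genes, and 1, Ank1, was called higher, beside 7% of all genes. Between the irradiated groups, 5 genes were higher at 3 dpi than at 1 dpi, where 3.98% of all genes were called higher and 4.82% lower. These 5 were Slc4a1, Epb42, Rhag, Rhd and Kel. The 3 arrays of a group did not overlap those of the other group for 8 genes at 1 dpi against Ctrl, for 7 at 3 dpi against Ctrl and for 7 at 3 dpi against 1 dpi, beside 67.5%, 47% and 65.6% of all genes tested, so that absence of overlap was common. Both comparisons against Ctrl used the same Ctrl arrays.

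The median log2 fold change of the 8 genes was -3.63 at 1 dpi and -2.14 at 3 dpi against Ctrl, and 1.37 at 3 dpi against 1 dpi. Over all genes tested it was 0.25, 0.12 and -0.11. With the genes that had only a bound placed at that bound, or at 0 where the bound allowed no fold, as for Epb42 at 3 dpi against 1 dpi, the medians of the 8 were -2.2, -2.14 and 0.45. With normexp the medians were -1.3, -1.06 and 0.45, and the calls were 5 lower, 5 lower and 3 higher. The counts of all genes called with normexp, both directions together, are given in the last section. Shares by direction are not given for normexp, so these member calls have no such background beside them. Among all called genes, the share called lower was 18.7% at 1 dpi, but 43.4% after quantile normalization and 50.9% with the array median, against 20.5%, 28.2% and 27.9% at 3 dpi. At 3 dpi against 1 dpi, it was 54.8%, 37.1% and 32.9%. Since the centre of all genes moved with the scaling, the changes are also given relative to the all-gene median. On that scale, the values at 1 dpi were -4.03 for Slc4a1, -1.7 for Sptb, 0.22 for Ank1, -4.4 for Epb42, -3.74 for Rhag, -6.76 for Rhd, -5.62 for Kel and 0.56 for Ermap. At 3 dpi they were -2.32, -1.25, 0.93, -2.94, -2.18, -2.93, -2.76 and 0.05 in the same order, and at 3 dpi against 1 dpi 1.69, 0.42, 0.69, 1.44, 1.53, 3.81, 2.84 and -0.54. At 1 dpi, Epb42, Rhag and Kel were not well above background on any array, so their values that involve this group, here and below, are measured differences and not folds.

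Slc4a1 encodes band 3, which exchanges chloride for bicarbonate and anchors the skeleton to the membrane. Its level was 0.68, 0.56 and 0.56 on the Ctrl arrays, -2.98, -3.21 and -3.36 at 1 dpi, and -1.44, -1.61 and -1.77 at 3 dpi. Every Ctrl array lay above every irradiated array, and the 3 dpi arrays lay between the other groups with no overlap. The gene fell 13.8-fold at 1 dpi (log2 fold change -3.78, SE 0.12, adjusted p 7.7e-07) and 4.61-fold at 3 dpi (-2.21, adjusted p 7.6e-06), which left 7.26% and 21.7% of the Ctrl signal. It rose 2.98-fold from 1 dpi to 3 dpi (1.58, adjusted p 7.4e-05). In bulk samples, fewer cells of a type and less RNA per cell cannot be told apart. The single probe of Slc4a1 lies at chr11:102210256-102210315 on the minus strand of mm9, the build of the array files, which do not say whether a probe lies in a coding exon.

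Sptb encodes the β-chain of erythroid spectrin, a building block of the net. Its brighter probe gave -4.47, -4.5 and -4.22 in Ctrl, -5.6, -6.33 and -5.62 at 1 dpi, and -5.28, -5.6 and -5.72 at 3 dpi. The Ctrl arrays were the highest, the irradiated groups overlapped each other, and the probe was well above background on 1 of the 3 arrays at 1 dpi. The gene fell 2.74-fold at 1 dpi (-1.45, SE 0.22, adjusted p 0.00099) and 2.2-fold at 3 dpi (-1.14, adjusted p 0.0051), and the difference between the irradiated groups was 0.32 (adjusted p 0.27). Sptb lost its calls when the background was corrected with normexp, a model of signal and background, which gave -0.62 and -0.53, and when its probes were averaged, which gave -0.37 and -0.38. Its other probe gave -6.21, -5.39 and -5.99 in Ctrl, -5.14, -5.26 and -5.07 at 1 dpi and -5.47, -5.84 and -5.15 at 3 dpi. That probe passed no call, with log2 fold changes of 0.71 (adjusted p 0.034) and 0.38 against Ctrl. The brighter probe lies at chr12:77697657-77697716 and the other at chr12:77682089-77682148, both on the minus strand of mm9.

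Ank1 encodes erythroid ankyrin, the adaptor between spectrin and band 3. The probe that stood for the gene gave -3.07, -2.76 and -2.67 in Ctrl, -2.29, -2.44 and -2.35 at 1 dpi, and -1.61, -1.79 and -1.94 at 3 dpi. Here Ctrl was the lowest group and 3 dpi the highest, with no overlap between any groups. The log2 fold change was 0.47 at 1 dpi (SE 0.13, adjusted p 0.015), under the fold minimum, and 1.05 at 3 dpi (adjusted p 5e-04), where the call was lost with every other scaling tried, at 0.98 after quantile normalization, 0.92 with the array median, 0.77 with normexp and 0.93 relative to all genes. The call was also lost without Ctrl replicate 1 (0.93) and without 3 dpi replicate 1 (0.96). Another probe gave the reverse direction against Ctrl, while both probes were higher at 3 dpi than at 1 dpi (0.58 on the first, under the fold minimum). This other probe read -1.02, -1.31 and -1.25 in Ctrl, -5.1, -4.96 and -4.74 at 1 dpi, and -3.35, -3.22 and -3.46 at 3 dpi. On this probe, every Ctrl array lay above every irradiated array and 3 dpi lay between, with log2 fold changes of -3.74 at 1 dpi (SE 0.12, adjusted p 8.5e-07), -2.15 at 3 dpi (adjusted p 9.4e-06) and 1.59 at 3 dpi against 1 dpi (adjusted p 7.4e-05).

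Of the other probes of Ank1, one at chr8:24259068-24259127 (mm9) was called lower at both times, with log2 fold changes of -1.06 (adjusted p 0.00098) and -1.04 (adjusted p 0.0017), and gave 0.02 at 3 dpi against 1 dpi. Another, spanning chr8:24250690-24251684, gave -0.03, -0.91 and, at 3 dpi against 1 dpi, -0.88 (adjusted p 0.00093) and was not called, and the last was well above background on 0 of the 9 arrays and was not tested. The probe with the reverse direction against Ctrl lies at chr8:24259629-24259688 and was designed on a RefSeq transcript. The probe that stood for the gene lies at chr8:24237389-24237448 and was designed on an Ensembl transcript, and both lie on the plus strand of mm9. So the direction for Ank1 depended on the probe.

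Epb42, named Epb4.2 in the array files, encodes protein 4.2, which binds band 3 and ankyrin. Its level was -3.76, -3.76 and -3.71 in Ctrl, -7.26, -8.19 and -8.24 at 1 dpi, and -6.95, -6.1 and -6.66 at 3 dpi. The Ctrl arrays were far above all others, and the signal was well above background on 0 of the 3 arrays at 1 dpi and on 2 of the 3 at 3 dpi. For a group without a signal well above background, only a bound is given as a fold, and the log2 value beside it is the measured difference. The mean of the brighter group was set against the mean, over the arrays of the dim group, of the higher of the probe's own level and the lowest level of any probe well above background on that array. Epb42 was at least 4.06-fold lower at 1 dpi than in Ctrl (measured log2 fold change -4.16, SE 0.3, adjusted p 3e-05) and 7.08-fold lower at 3 dpi (-2.82, adjusted p 0.00026). It was called higher at 3 dpi than at 1 dpi (1.33, adjusted p 0.0087), with no fold that the bound allows, and this call was lost with normexp (0.17), with the mean of its probes (0.82) and with the methods' t-test after adjustment (adjusted p 0.059). Normexp gave -1.25 at 1 dpi and -1.08 at 3 dpi against Ctrl. Both probes of Epb42 passed the filter through Ctrl alone, which favoured a lower call. The second probe was well above background on 0 arrays at 1 dpi and 0 at 3 dpi. This second probe was called lower at both times, at least 1.02-fold and at least 2.07-fold. It was designed on another transcript and lies at chr2:120849386-120849445, whereas the brighter probe lies at chr2:120844440-120844499 (mm9, minus strand).

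**Figure D1:**
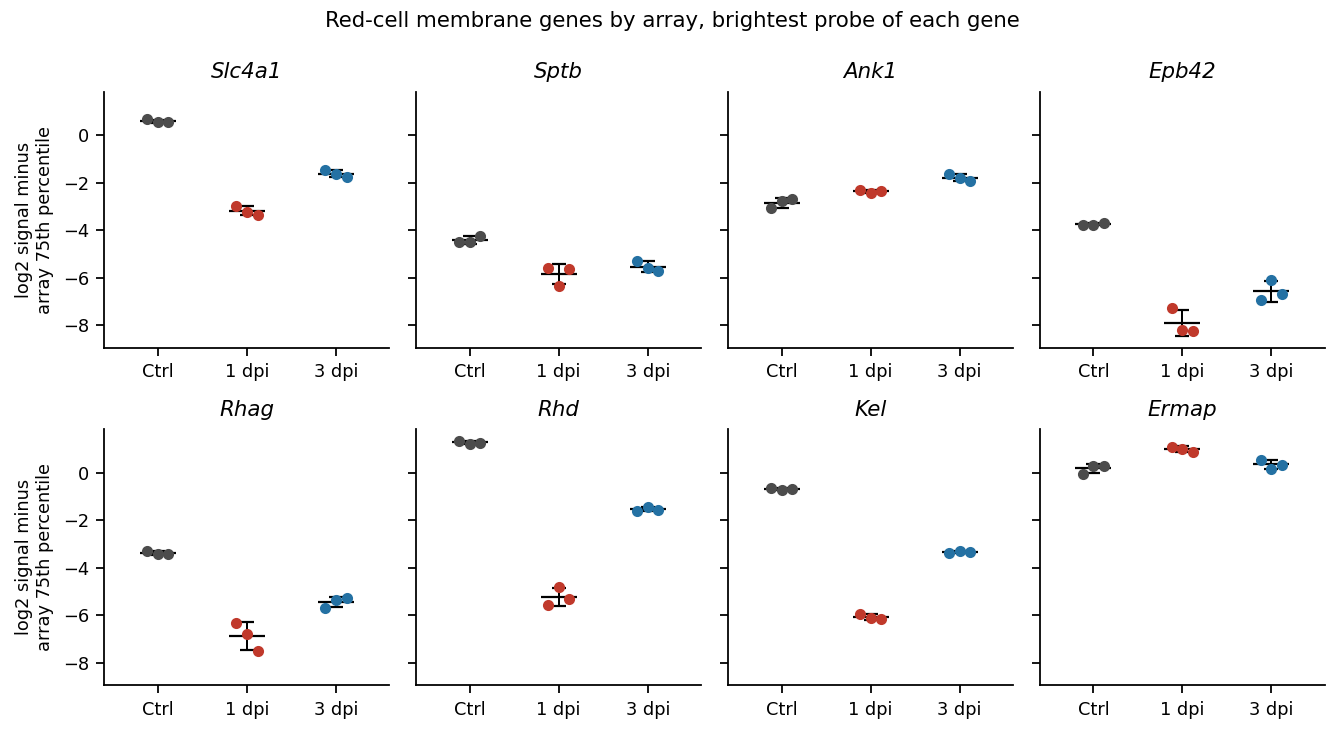
Level of each of the 8 genes on each array (dots), as log2 signal minus the 75th percentile of the array, for Ctrl, 1 dpi and 3 dpi, with the group mean and SD in black. Slc4a1, Epb42, Rhag, Rhd and Kel are highest in Ctrl and lowest at 1 dpi, Sptb overlaps between the irradiated groups and loses its calls with normexp, and Ank1 and Ermap, for which 2 other probes and 1 other probe were called lower, show no fall, with Ank1 called at 3 dpi under the main scaling alone among the scalings tried.

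The plot of levels by array shows the 3 arrays of each group close together for most genes, with SDs in Ctrl from 0.03 for Epb42 to 0.21 for Ank1. At 1 dpi, the SD was 0.55 for Epb42, 0.59 for Rhag and 0.12 for Kel, which were not well above background there, and 0.19 for Slc4a1, which was.

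The Rh complex is a membrane channel built of the Rh-associated glycoprotein, encoded by Rhag, which carries ammonium, and of the Rh blood group protein, encoded in the mouse by Rhd. Rhag gave -3.28, -3.43 and -3.41 in Ctrl, -6.3, -6.79 and -7.48 at 1 dpi, and -5.68, -5.36 and -5.28 at 3 dpi. Its groups did not overlap, with Ctrl on top and 1 dpi at the bottom, where the probe was well above background on 0 of the 3 arrays. Rhag was at least 5.24-fold lower at 1 dpi than in Ctrl (measured -3.49, SE 0.27, adjusted p 4.3e-05) and 4.19-fold lower at 3 dpi (-2.07, adjusted p 0.00081). It was at least 1.25-fold higher at 3 dpi than at 1 dpi (1.42, adjusted p 0.0042), a call that normexp lost (0.31). Normexp also brought the values against Ctrl to -1.35 and -1.04. Its probe lies at chr17:40976929-40976988 on the plus strand of mm9.

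Rhd gave 1.35, 1.23 and 1.28 in Ctrl, -5.56, -4.82 and -5.3 at 1 dpi, and -1.6, -1.44 and -1.54 at 3 dpi. Arrays within a group differed by less than 1 on this scale and the groups were several units apart, with 2 of the 3 arrays at 1 dpi well above background. The gene fell 91.4-fold at 1 dpi (-6.51, SE 0.17, adjusted p 3.5e-07), to 1.09% of the Ctrl signal, and 7.04-fold at 3 dpi (-2.82, adjusted p 1.3e-05), to 14.2%. From 1 dpi to 3 dpi it rose 13-fold (3.7, adjusted p 1e-05). Its second probe, on the same transcript, read -1.34, -1.36 and -1.32 in Ctrl, -4.05, -4.18 and -3.59 at 1 dpi, and -3.77, -3.48 and -3.47 at 3 dpi. This probe too was highest in Ctrl, but its irradiated groups overlapped. It fell by 2.6 at 1 dpi (adjusted p 1.2e-05) and by 2.23 at 3 dpi (adjusted p 2.7e-05), and its difference between the irradiated groups was 0.37 (adjusted p 0.086). The first probe lies at chr4:134452018-134452077 and the second at chr4:134441242-134441301, both on the plus strand of mm9.

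Kel encodes the Kell blood group protein, a zinc endopeptidase that cleaves big endothelins. It gave -0.65, -0.73 and -0.68 in Ctrl, -5.92, -6.1 and -6.15 at 1 dpi, and -3.38, -3.3 and -3.31 at 3 dpi. The groups lay far apart, and at 1 dpi the probe was well above background on 0 of the 3 arrays. Kel was at least 33.8-fold lower at 1 dpi than in Ctrl (measured -5.37, SE 0.07, adjusted p 5.1e-08), where normexp gave -3.35, and 6.24-fold lower at 3 dpi (-2.64, adjusted p 3.7e-07). It was at least 5.41-fold higher at 3 dpi than at 1 dpi (2.73, adjusted p 5.3e-06), where normexp gave 1.25. Both of its probes moved alike. The second was at least 11.6-fold lower at 1 dpi, changed by -2.48 at 3 dpi and was at least 2.08-fold higher at 3 dpi than at 1 dpi. They lie at chr6:41636474-41636533 and chr6:41637969-41638028 on the minus strand of mm9.

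Ermap encodes an erythroid membrane protein of the butyrophilin family that carries the Scianna blood group. The probe that stood for the gene gave -0.03, 0.31 and 0.31 in Ctrl, 1.11, 1.03 and 0.88 at 1 dpi, and 0.56, 0.17 and 0.35 at 3 dpi. The 1 dpi arrays were the highest, while Ctrl and 3 dpi overlapped. No call was made, with log2 fold changes of 0.81 at 1 dpi (adjusted p 0.0017), 0.16 at 3 dpi (adjusted p 0.39) and -0.65 at 3 dpi against 1 dpi (adjusted p 0.0061). The other probe read -2.59, -2.52 and -2.6 in Ctrl, -6.5, -6.6 and -5.51 at 1 dpi, and -5.05, -5.11 and -5.26 at 3 dpi. On it, Ctrl was the highest group and 1 dpi the lowest, with 1 of the 3 arrays at 1 dpi well above background. It fell by 3.63 at 1 dpi (adjusted p 2.9e-05) and by 2.57 at 3 dpi (adjusted p 2e-04), and rose by 1.06 from 1 dpi to 3 dpi (adjusted p 0.012). Both probes were designed on the same RefSeq transcript, the one that stood for the gene at position 3460 and the other at position 607, and lie at chr4:118849093-118849152 and chr4:118859754-118859813 on the minus strand of mm9.

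Of the 17 probes, 16 could be tested. Of these, 12 were called lower at 1 dpi, beside 3.02% of the 44300 probes tested. At 3 dpi, 12 were called lower, beside 1.86% of all probes, and 1 higher, beside 6.58%. Both counts of 12 hold the probes of Epb42, which passed the filter through Ctrl alone. Between the irradiated groups, 8 were higher at 3 dpi, beside 3.75% of all probes. The log2 fold changes ran from -6.51 to 0.81 at 1 dpi, from -2.82 to 1.05 at 3 dpi and from -0.88 to 3.7 at 3 dpi against 1 dpi. Each of the genes Slc4a1, Ank1, Epb42, Rhag, Rhd, Kel, Sptb and Ermap thus had at least 1 probe called lower at both times, as 1.17% of all genes tested had, and most of the 8 had more than 1 tested probe. Probes of Ank1, Ermap and Sptb disagreed within the gene, and probes of Rhd disagreed on the difference between 1 dpi and 3 dpi. For Epb42, only the brighter probe was called in that comparison. The other probe of Epb42 was well above background on 0 arrays of either irradiated group, so it cannot decide this difference.

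**Figure D2:**
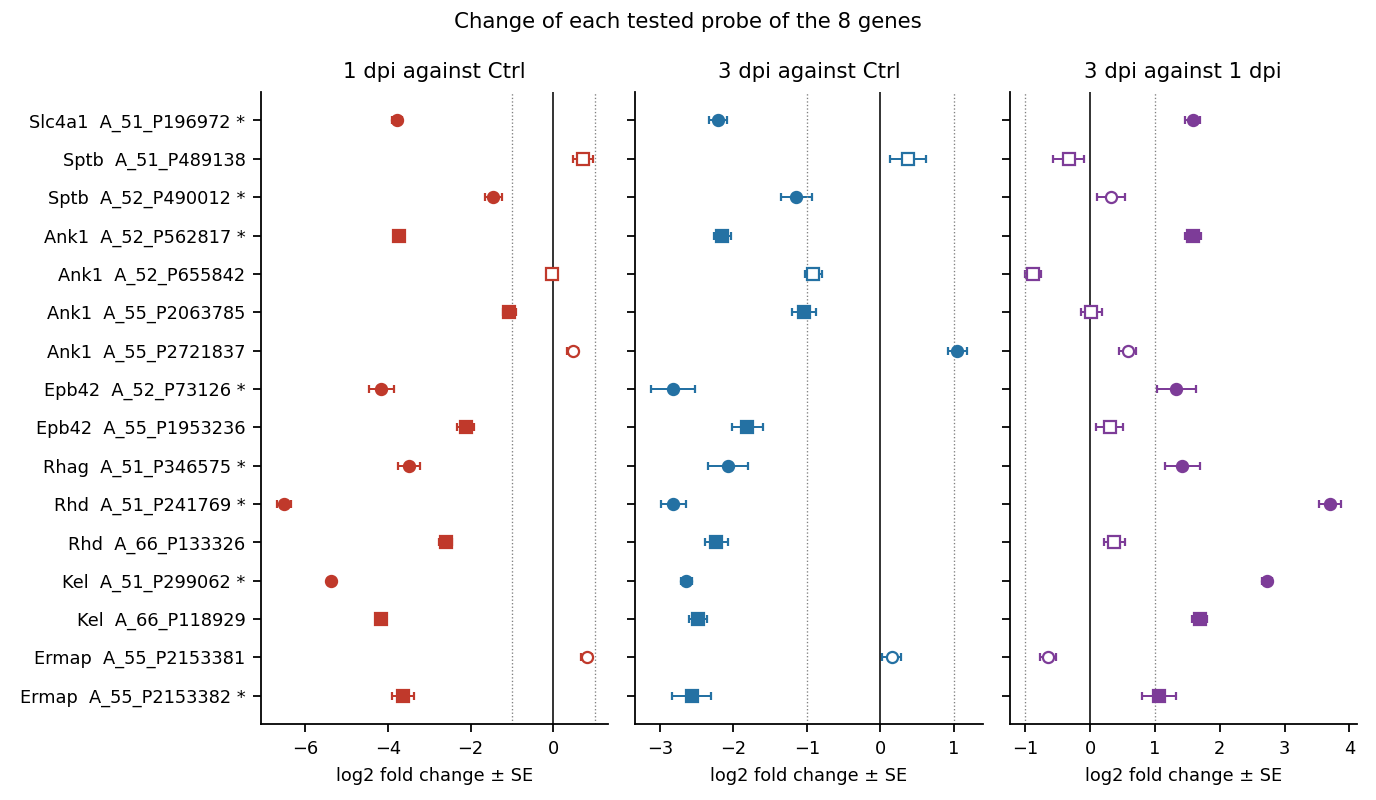
Log2 fold change with SE of the 16 tested probes in the 3 comparisons, each panel with its own scale. Circles are the probes that stood for a gene and squares the other probes, filled symbols were called, dotted lines mark a 2-fold change, and an asterisk marks the probe that matches the deposited table. The asterisked probes of Ank1 and Ermap lie left of 0 against Ctrl while the probes that stood for these genes lie right of it, and the 3 dpi call of the latter for Ank1 was lost under the other scalings.

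The plot of probe changes also shows where the table of log2 values that the authors deposited took its numbers. The row of every member could be matched to 1 probe within 0.0028 log2 units after quantile normalization, which was the probe that stood for the gene in 6 cases and another one for Ank1 and Ermap. In that table, Ank1 read 9.12, 8.79 and 8.86 in Ctrl, 4.7, 4.92 and 5.13 at 1 dpi, and 6.78, 6.93 and 6.66 at 3 dpi. Ermap read 7.72, 7.6 and 7.54 in Ctrl, 3.33, 3.25 and 4.33 at 1 dpi, and 5.03, 5 and 4.85 at 3 dpi. In the deposited table, every Ctrl array of both genes lay above every irradiated array. With those values, 8 of the 8 genes were called lower at 1 dpi and 8 at 3 dpi, and 7 were higher at 3 dpi than at 1 dpi, all but Sptb. Of the 27275 rows of that table, 6.94% were called lower at 1 dpi, 3.15% lower at 3 dpi and 6.36% higher at 3 dpi than at 1 dpi. The same probes on the main scale gave 8, 8 and 7 calls too, a choice of probe that was made after seeing the data.

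**Figure D3:**
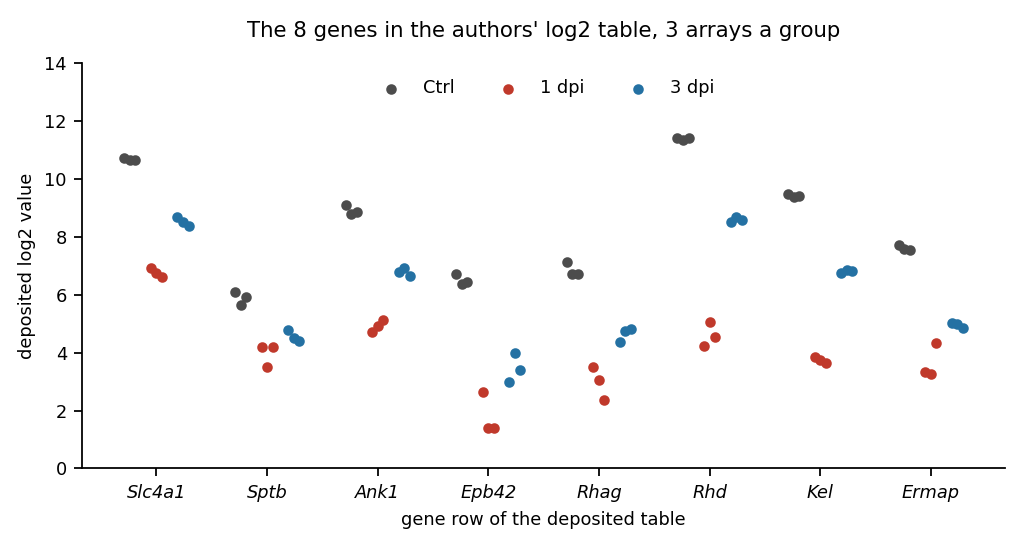
Deposited log2 value of each of the 8 genes on each array, with 3 dots a group for Ctrl, 1 dpi and 3 dpi. In all 8 genes the Ctrl arrays lie above the irradiated arrays, unlike on the brightest probes of Ank1 and Ermap, and the 3 dpi arrays of each gene lie above its 1 dpi arrays, although Sptb was not called in that comparison.

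Slide was the only batch that the arrays recorded. Slide 1 carried 8 arrays with all 3 groups and slide 2 carried Ctrl replicate 1 alone, so the fit with slide as a block gives the values within slide 1. At 1 dpi these were -3.74 for Slc4a1, -1.49 for Sptb, 0.35 for Ank1, -4.17 for Epb42, -3.44 for Rhag, -6.48 for Rhd, -5.35 for Kel and 0.7 for Ermap, those of Epb42, Rhag and Kel again as measured differences. At 3 dpi they were -2.16, -1.18, 0.93, -2.83, -2.02, -2.78, -2.62 and 0.05 in that order. Calls within slide 1 numbered 6 at 1 dpi, 6 at 3 dpi and 5 at 3 dpi against 1 dpi, the difference at 3 dpi being Ank1. In that fit, 3.18% of all genes were called lower at 1 dpi, 1.81% lower at 3 dpi and 4.35% higher at 3 dpi than at 1 dpi. With slide as a random block, where arrays of a slide correlated at 0.65, Ank1 was not called either (0.97).

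Promoters are shown for Epb42, Rhag, Rhd and Kel, genes whose every tested probe was called lower at both times. For Epb42, these probes passed the filter through Ctrl alone. RefSeq windows of 300 bases, from 250 before to 50 after the annotated start, matched 6 of the 8 genes by symbol in the assembly GRCm38.p6. Ank1 and Slc4a1 were not matched. The windows lie at chr2:121036828-121037127 on the minus strand for Epb42, chr17:40810899-40811198 on the plus strand for Rhag, chr4:134864286-134864585 on the plus strand for Rhd and chr6:41704276-41704575 on the minus strand for Kel. Each is written from 5′ to 3′ of the gene, and capitals mark matches on either strand. The GATA motif was searched as AGATAA, also as TGATAA, further as AGATAG and lastly as TGATAG, and the other motif was CACCC.
Epb42: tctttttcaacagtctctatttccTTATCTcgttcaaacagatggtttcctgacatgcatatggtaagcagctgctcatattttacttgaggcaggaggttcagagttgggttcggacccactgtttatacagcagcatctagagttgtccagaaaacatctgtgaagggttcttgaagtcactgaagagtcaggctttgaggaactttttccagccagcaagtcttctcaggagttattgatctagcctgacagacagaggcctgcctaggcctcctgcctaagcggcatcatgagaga
Rhag: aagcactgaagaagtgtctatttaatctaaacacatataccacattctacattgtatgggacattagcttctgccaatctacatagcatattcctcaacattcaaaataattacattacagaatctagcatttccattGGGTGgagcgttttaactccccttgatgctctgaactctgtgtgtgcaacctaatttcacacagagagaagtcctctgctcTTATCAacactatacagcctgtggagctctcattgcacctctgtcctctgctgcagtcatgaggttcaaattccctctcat
Rhd: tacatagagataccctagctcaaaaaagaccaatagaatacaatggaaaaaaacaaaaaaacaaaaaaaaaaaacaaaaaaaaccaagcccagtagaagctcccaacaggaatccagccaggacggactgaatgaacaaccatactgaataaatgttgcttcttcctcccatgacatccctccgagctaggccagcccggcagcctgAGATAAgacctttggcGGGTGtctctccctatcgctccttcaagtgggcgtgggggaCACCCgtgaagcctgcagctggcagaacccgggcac
Kel: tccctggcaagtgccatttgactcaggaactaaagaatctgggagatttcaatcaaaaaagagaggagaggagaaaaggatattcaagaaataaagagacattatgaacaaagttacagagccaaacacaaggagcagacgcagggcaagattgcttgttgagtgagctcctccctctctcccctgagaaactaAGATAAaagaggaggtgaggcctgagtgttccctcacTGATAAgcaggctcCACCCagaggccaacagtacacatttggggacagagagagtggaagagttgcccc

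The GATA motif was found in 6 of the 6 member windows, beside 29.8% of the 32851 windows of all genes. CACCC was found in 5 of the 6, all but Epb42, beside 57.5% of all windows, and both were found in 5 of the 6, beside 14.9%. No match of one motif overlapped a match of the other. In the printed windows, Kel held 2 GATA matches and Rhd held 2 CACCC matches. The window of Ermap, whose probes disagreed, held both motifs as well. A match is a description of the letters in the window.

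Other genes of the red-cell membrane and its skeleton formed a list of 30 genes. Of these, 7 fell and 1 rose at 1 dpi, 8 fell and 1 rose at 3 dpi, and 4 rose and 1 fell from 1 dpi to 3 dpi, with medians of -0.39, -0.11 and 0.15 beside 0.25, 0.12 and -0.11 for all genes. With the array median, 11 were lower at 1 dpi and 6 higher at 3 dpi against 1 dpi, where normexp gave 2. Their levels summed to 7.23, 7.17 and 7.15 in Ctrl, 7.17, 7.18 and 7.18 at 1 dpi, and 7.17, 7.14 and 7.13 at 3 dpi, with Cd47 the brightest, and the groups overlapped. Of the 30, 19 had a log2 fold change below 0 at 1 dpi and 18 at 3 dpi, and 24 and 16 had an adjusted p under 0.05 in either direction, beside 55.9% and 32% of all genes.

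Cldn13, a claudin, changed by -3.96 at 1 dpi, -1.97 at 3 dpi and 1.99 at 3 dpi against 1 dpi, the last lost with normexp (0.99). The water channel gene Aqp1 fell by 2.26 and 1.8, and the urea transporter gene Slc14a1 fell by 1.97 at 3 dpi, while its value at 1 dpi, -1, missed the fold minimum. Ackr1, the Duffy blood group receptor, rose by 2.35 at 3 dpi and by 1.52 from 1 dpi to 3 dpi. Dmtn, which bundles actin at the skeleton, rose by 1.53 at 1 dpi and changed by -1.33 from 1 dpi to 3 dpi, but its probes ran from -1.65 to 1.53 at 1 dpi.

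Relatives of the 8 genes, such as other anion exchangers, spectrins, ankyrins and transglutaminases, formed a list of 28, of which 27 were tested. Of these, 3 (11.1%) were called higher at 1 dpi and 4 (14.8%) at 3 dpi against Ctrl, beside 12.3% and 7% of all genes, and none was called lower. From 1 dpi to 3 dpi, 2 rose and 1 fell, beside 3.98% higher and 4.82% lower among all genes. The medians were 0.58, 0.3 and -0.14, the last of which was 0.05 with the array median. Tgm2, a transglutaminase related to protein 4.2, rose by 1.53 at 1 dpi and 1.18 at 3 dpi. Btn1a1, a butyrophilin related to Ermap, rose by 1.52 at 1 dpi and changed by -1.32 from 1 dpi to 3 dpi. Phex, an endopeptidase related to Kel, was called higher by 2.87 at 3 dpi and by 2.04 from 1 dpi to 3 dpi, both lost with normexp (0.89 and 0.86). Its probe was well above background on 1 of the 3 arrays in Ctrl and on 1 of the 3 at 1 dpi. Phex thus passed the filter through 3 dpi alone, which favoured a higher call. Tgm1 rose by 1.49 at 3 dpi. The anion exchanger genes Slc4a9 at 1 dpi (1.01) and Slc4a3 at 3 dpi (1.01) were called, and both calls were lost with every other scaling tried. Slc4a10 was not tested for want of a bright enough probe.

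The list of globins and their chaperone held genes that changed in opposite directions. Of 8 tested genes, 3 rose and 1 fell at 1 dpi, 1 rose and 6 fell at 3 dpi, and 2 rose and 5 fell from 1 dpi to 3 dpi, with medians of 0.67, -1.6 and -2.27. After quantile normalization, 1 rose and 2 fell at 1 dpi. Hba-a1, an α-globin gene, read 6.55, 6.23 and 6.29 in Ctrl, 7.9, 7.61 and 7.58 at 1 dpi, and 4.93, 4.91 and 4.79 at 3 dpi. So its 1 dpi arrays were the highest and its 3 dpi arrays the lowest. It rose by 1.34 at 1 dpi (adjusted p 8.5e-05), a value that lay between 0.69 and 1.09 under the other scalings and lost its call in 2 of those 4, and fell by 1.48 at 3 dpi (adjusted p 6e-05). Hba-a2 is a nearly identical copy, and the probes cannot be assumed to tell the copies apart. The β-globin gene Hbb-b1 rose by 1.08 at 1 dpi, a call lost in 2 of the 4 other scalings, and fell by 1.82 at 3 dpi. Hbb-y, an embryonic globin gene, was at least 3.33-fold higher at 3 dpi than in Ctrl, and normexp lost that call (0.5). Its probe was well above background on 0 arrays in Ctrl and 0 at 1 dpi. Hbb-y thus passed the filter through 3 dpi alone, which favoured a higher call, and it was the 1 gene of the list that rose at 3 dpi.

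Ahsp encodes the chaperone that binds free α-globin. It read 2.19, 2.3 and 2.28 in Ctrl, -4.96, -5.35 and -5.77 at 1 dpi, and -0.49, -0.31 and -0.32 at 3 dpi. Thus Ahsp was highest in Ctrl and lowest at 1 dpi, the order of Rhd and Kel. It fell by 7.62 at 1 dpi (adjusted p 2.5e-07) and by 2.63 at 3 dpi (adjusted p 2.8e-05), and rose by 4.99 from 1 dpi to 3 dpi (adjusted p 6.3e-06). Hba-x was not bright enough to test, and Hbb-bs was not found by name. The summed level of the 8 was 7.8, 7.56 and 7.63 in Ctrl, 9.02, 8.72 and 8.69 at 1 dpi, and 6.15, 6.17 and 6.05 at 3 dpi.

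Of 9 genes of haem synthesis, limma called 0 at 1 dpi, where the methods' t-test called 0 and the array median called 2 lower. An unadjusted p under 0.05 was found for 8, and an adjusted p under 0.05 for the same number, 7 of them with lower signal and 1 with higher, so that the fold minimum kept them from a call. At 3 dpi 1 fell, Alas2, which encodes the first enzyme of the erythroid pathway. Alas2 changed by 0.72 at 1 dpi without a call (adjusted p 0.002), fell by 2.26 at 3 dpi (adjusted p 7.8e-06) and changed by -2.98 from 1 dpi to 3 dpi (adjusted p 8.5e-06). Of 18 erythroid regulators, 6 fell at 1 dpi, 7 fell and 1 rose at 3 dpi, and 2 rose from 1 dpi to 3 dpi, against 1 call with normexp. Klf1, the erythroid Krüppel-like factor, fell by 2.09 at 1 dpi (adjusted p 1e-05) and by 1.69 at 3 dpi (adjusted p 3e-05), with 0.4 between the times and no call. Sox6, a transcription factor of late erythroid cells, fell by 2.79 and 2.53, while its probes ran from -3.01 to -0.31 at 1 dpi. Trim10 was at least 4.7-fold lower at 1 dpi and changed by -1.76 at 3 dpi, the latter lost with normexp (-0.9). The erythropoietin receptor gene Epor fell by 1.28 at 1 dpi, had -0.15 at 3 dpi and rose by 1.13 between the times. Its 2 probes ran from -1.28 to -0.15 at 1 dpi and from 0.29 to 1.13 between the times. Erfe, which encodes the hormone erythroferrone, was called higher at 3 dpi (1.04), a call lost with every other scaling tried. It was at least 2.78-fold higher at 3 dpi than at 1 dpi (measured 1.72, limma's adjusted p 0.00013), while its probes ran from -0.37 to 1.72.

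Of 7 genes of iron uptake and storage, 1 rose and 1 fell at 1 dpi. These were the ferritin gene Ftl1 (1.09) and the transferrin receptor gene Tfrc (-1.02). The Ftl1 call was lost with every other scaling tried. The Tfrc call was lost after quantile normalization, with normexp, within slide 1 and with slide as a random block. It was also lost with averaged probes, in the deposited table, and without Ctrl replicate 1 or 1 dpi replicate 1. At 3 dpi limma called 0, with 4 at an unadjusted and 3 at an adjusted p under 0.05, and 0 by the methods' t-test. Between the times 1 rose, the iron exporter gene Slc40a1 (1.6), a call lost with the mean of its probes. At 1 dpi the summed level of the globin list was above that of Ctrl, while Ahsp, Rhd, Kel and Slc4a1 were at their lowest.

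**Figure D4:**
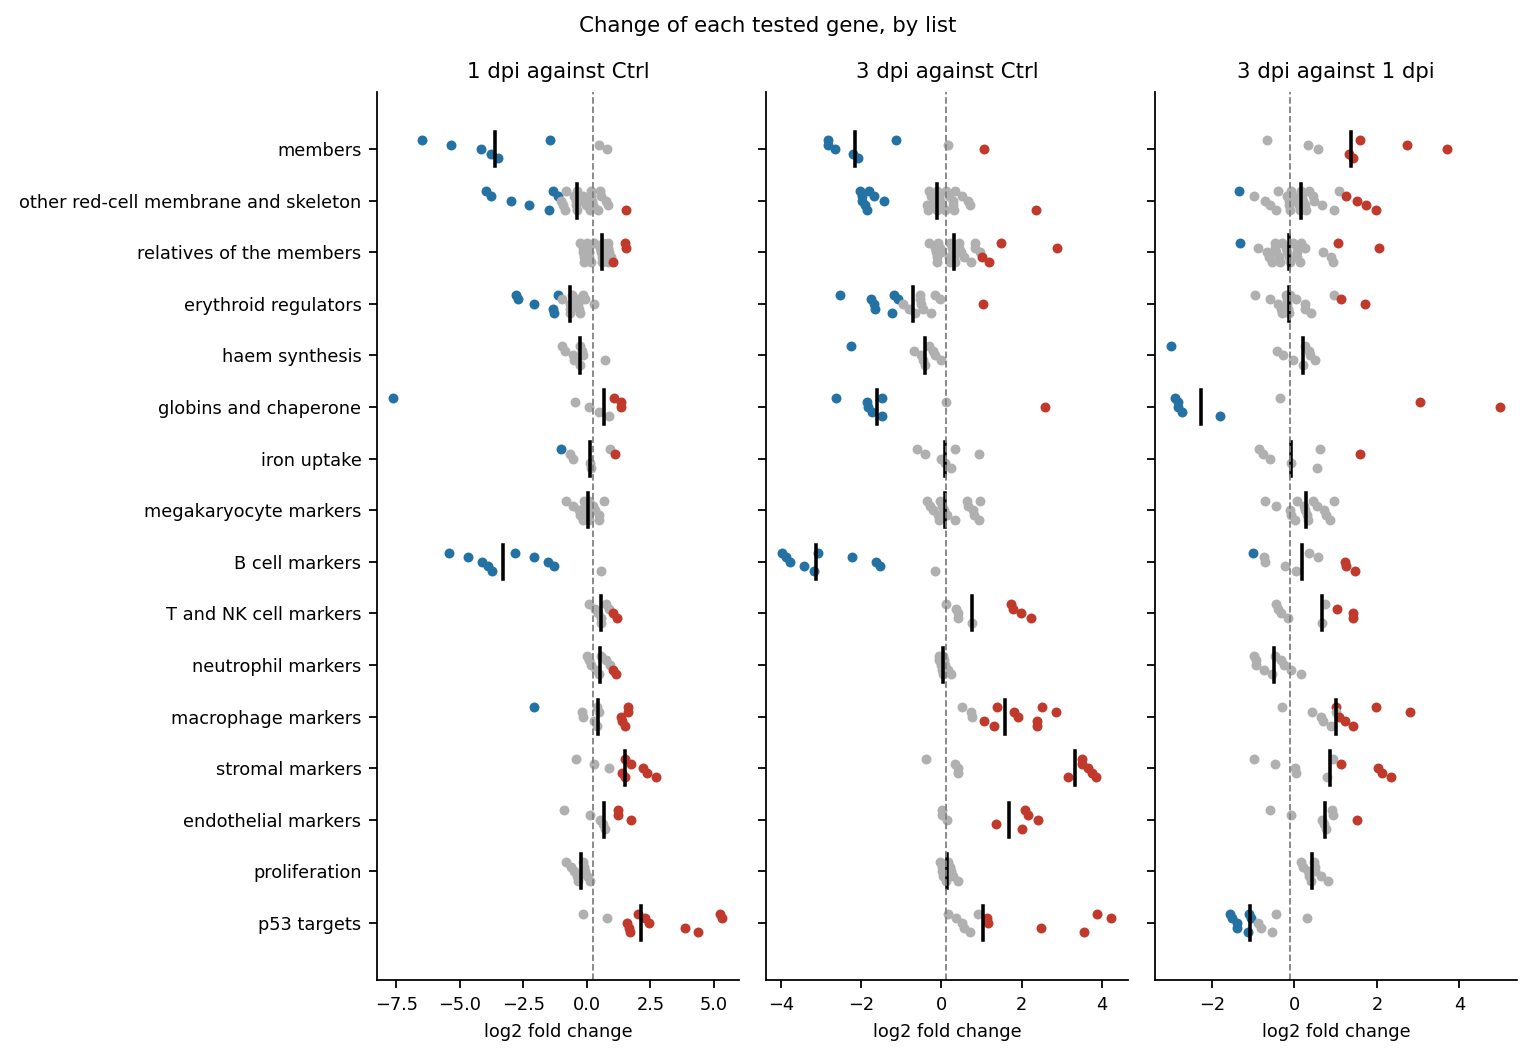
Log2 fold change of each tested gene by list in the 3 comparisons, with genes called lower in blue, called higher in red and not called in grey, the median of each list as a black bar and the all-gene median as a dashed line. The medians of the 8 members and of the B cell markers lie far left of 0 against Ctrl, those of the stromal markers and p53 targets lie right of it, and some calls, such as that of S100a8 at 1 dpi, were lost with every other scaling tried.

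Markers of other cell types of the marrow also moved between the groups, as the plot by list shows. Of 10 B cell markers, 9 fell at 1 dpi and 9 at 3 dpi (8 and 8 with normexp), with medians of -3.29 and -3.12 (-2.7 at 3 dpi with Rag1 at its bound). From 1 dpi to 3 dpi 3 rose, against 1 with normexp, and Rag1 was called lower (-1.01) although it was not well above background in either group, a call lost with every other scaling tried. Their summed level was 4.89, 4.81 and 4.84 in Ctrl, 2.56, 2.5 and 2.54 at 1 dpi, and 2.52, 2.48 and 2.48 at 3 dpi, with Cd79b, part of the B cell receptor, the brightest. The irradiated groups overlapped in this sum, although Vpreb3 (1.46), Igll1 (1.26) and Ebf1 (1.23) were called higher at 3 dpi than at 1 dpi, as 5 members were. Vpreb3 and Igll1, of the pre-B cell receptor, fell by 5.42 and 4.7 at 1 dpi and by 3.96 and 3.43 at 3 dpi. Ms4a1, which encodes CD20, fell by 4.13 and 3.77 on its brighter probe, while the probes ran from -4.13 to 1.46 at 1 dpi. Rag1, which cuts receptor genes, was not well above background at 1 dpi or 3 dpi, so it passed the filter through Ctrl alone, which favoured a lower call. It was at least 1.8-fold lower at 3 dpi than in Ctrl, while its lower call at 1 dpi had no fold that the bound allows. The part of the B cell markers in the result was not tested.

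Of 12 macrophage markers, 5 rose and 1 fell at 1 dpi, 9 rose at 3 dpi (8 with quantile normalization or the array median) and 6 rose from 1 dpi to 3 dpi. The sum of their levels was 6.2, 6.06 and 5.98 in Ctrl, 6.83, 6.79 and 6.89 at 1 dpi, and 7.31, 7.44 and 7.4 at 3 dpi, with Hmox1, the haem-degrading enzyme, the brightest, and all 12 were well above background on all 9 arrays. Siglec1, a lectin of marrow macrophages, rose by 1.62 and 2.84 against Ctrl. Cd163, the scavenger receptor for haemoglobin, fell by 2.07 at 1 dpi, had 0.74 at 3 dpi and rose by 2.81 between the times.

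Of 10 stromal markers, 7 rose at 1 dpi, 6 at 3 dpi and 4 from 1 dpi to 3 dpi. Their summed level was 3.37, 3.31 and 3.38 in Ctrl, 5.67, 5.46 and 5.58 at 1 dpi, and 6.54, 6.41 and 6.51 at 3 dpi, with the chemokine gene Cxcl12 the brightest at log2 fold changes of 2.71 and 3.5. Lum, a proteoglycan of the matrix, rose by 3.84 at 3 dpi. Of 8 endothelial markers, 3 rose at 1 dpi (1 rose and 1 fell with the array median), 5 at 3 dpi and 1 between the times (3 after quantile normalization, with the array median and relative to all genes). Their summed level was 1.62, 1.49 and 1.51 in Ctrl, 2.33, 2.23 and 2.25 at 1 dpi, and 3.19, 2.94 and 2.98 at 3 dpi, with Stab2 the brightest, and the cadherin gene Cdh5 rose by 1.74 and 2.4. The part of the macrophage, stromal and endothelial markers in the result was not tested.

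Of 9 T and NK cell markers, 2 rose at 1 dpi (0 with the array median), 4 at 3 dpi and 3 between the times. Their summed level was 4.92, 5 and 4.93 in Ctrl, 5.5, 5.39 and 5.4 at 1 dpi, and 5.29, 5.16 and 5.12 at 3 dpi, with Nkg7 the brightest, and the granzyme gene Gzma rose by 2.23 at 3 dpi. Trac was not found by name. Of 10 neutrophil markers, 2 rose at 1 dpi, S100a8 (1.14) and S100a9 (1.02), and both calls were lost with every other scaling tried. Limma called 0 at 3 dpi and 0 between the times, where 1 and 9 had an unadjusted p under 0.05, 1 and 8 had an adjusted p under 0.05 and the methods' t-test called 0 and 0. On the same scale their sum was 10.25, 10.29 and 10.28 in Ctrl, 11.01, 10.92 and 10.9 at 1 dpi, and 10.39, 10.23 and 10.31 at 3 dpi, with Mpo the brightest. The direction of this list turned with the scaling, since its median was 0.52 at 1 dpi but -0.16 after quantile normalization and -0.15 with normexp, and -0.5 at 3 dpi against 1 dpi but 0.21 with either. The part of these markers in the result was not tested either.

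Of 10 proliferation genes, limma called 0 in each comparison, with 6, 3 and 8 at an unadjusted p under 0.05, 5, 1 and 7 at an adjusted p under 0.05 and 0 by the methods' t-test, whereas the array median called 1 lower at 1 dpi and 1 higher between the times. Of 12 p53 targets, 10 rose at 1 dpi and 6 at 3 dpi, and 7 were lower at 3 dpi than at 1 dpi (4 with the array median). Cdkn1a, the cell cycle inhibitor p21, rose by 3.87 at 1 dpi and 2.48 at 3 dpi and changed by -1.39 between the times. Phlda3 rose by 5.34 and 4.23, and Eda2r was at least 21.2-fold and at least 8.13-fold higher.

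The Pearson correlation of each member with the mean centred profile of the other 7 over the 9 arrays was 0.995 for Slc4a1, 0.996 for Kel, 0.98 for Rhag, 0.973 for Rhd, 0.966 for Epb42, 0.891 for Sptb, -0.486 for Ank1 and -0.863 for Ermap. These points share the arrays and their scaling, and 3 groups set most of the spread. Of 6065 genes called in at least 1 comparison, 168 had a correlation over 0.95 with the mean profile of the 8 and 12 over 0.99. The 10 most alike were Slc38a5 (0.9968), Ly6d (0.9947), Zfp708 (0.9947), Pcmtd2 (0.9937), Pdia2 (0.9928), Ebf1 (0.9927), Ppm1e (0.992), Cldn13 (0.9915), Myh10 (0.9914) and Zfp712 (0.9913). Slc38a5, an amino acid transporter gene, had log2 fold changes of -5.19 at 1 dpi, -2.56 at 3 dpi and 2.63 between the times. Ebf1, a B cell factor, had -2.84, -1.62 and 1.23, and Myh10, a non-muscle myosin, had -1.89, -0.86 and 1.03. The probe named Zfp708 is described in the array files as a predicted gene.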

How the data were processed

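RNA of mMKs from Ctrl, 1 dpi and 3 dpi mice was analysed on 9 Agilent 1-colour arrays with probes of 60 bases, 3 a group, grouped by the treatment in the sample labels. Per the labels, scanner output was read with Agilent Feature Extraction 10.7.1.1, and the deposited intensity of a spot is its background-corrected brightness before any scaling between arrays. In addition, the deposited log2 values of 27275 gene names (column medians from 5.79 to 5.87) equal, for the members, the quantile-normalized log2 intensity of a single probe. The methods of the study describe another type of array, so its labelling and analysis steps were not taken as those of these files. The number of per-sample value columns that went unused was 0.

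Each array held 62976 spots, 3671 of them controls, and 59305 spots for 56605 probes. Spots of 1 probe were averaged, 20 probes were lost as outliers, and 0 spots were saturated. Probes were named by RefSeq accession (32984), by synonym (520) or by the name in the files (23081). The processed intensity was taken to log2, and the 75th percentile of each array was subtracted. A probe was kept if, in at least 1 group, each of the 3 arrays had it well above background (44300 probes, 29181 genes), and the brightest probe stood for a gene. Group means of all 9 arrays were fitted with limma 3.58.1 in R 4.3.3 (data.table, version 1.17.8), with Benjamini-Hochberg adjustment over all genes tested, and called at an adjusted p under 0.05 and at least 2-fold. The steps were tested on simulated data, where nearly all of the largest changes were called and smaller ones in part; the bound set for the latter was loosened after a first run missed it.

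The text names all 8 members, genes among the 3 largest called changes of each list, defining markers and the 10 genes most like the members by Pearson correlation. The lists held other red-cell membrane and skeleton genes, relatives of the members, globins and chaperone, haem synthesis, erythroid regulators, iron uptake, megakaryocyte, stromal, endothelial, macrophage, B cell, neutrophil, and T and NK cell markers, proliferation and p53 targets. A summed level is the log2 of the summed linear levels of the genes of a list tested on an array. Some genes counted in the list of other membrane and skeleton genes are not reported here by name. The members and lists were chosen with earlier results of these data known. Alternatives were quantile normalization, the array median, normexp (offset 50) with quantile normalization, no filter, probes bright on all 9 arrays, the mean of kept probes, the deposited table, changes relative to all genes, no minimum fold, only the groups compared, the replicate number or slide as a block, the methods' t-test and leaving out each array.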

Additional observations from a re-analysis of the deposited data

Results flagged for a closer look

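The changes after IR differed between the time points for 5 of the 8 genes, by limma's test of 3 dpi against 1 dpi, which compares the irradiated groups directly. The log2 difference was 1.58 for the anion exchanger gene Slc4a1, 1.33 for Epb42, 1.42 for Rhag, 3.7 for Rhd and 2.73 for Kel, with the 3 dpi arrays above the 1 dpi arrays in each. Those of Epb42, Rhag and Kel are measured differences from a group that was not well above background, so they are no folds. The second probe of Rhd gave 0.37 and was not called. The second probe of Epb42 gave 0.3, also without a call. It was well above background on 0 arrays of either irradiated group, so it cannot decide this difference. Normexp lost the differences of Epb42 (0.17) and Rhag (0.31). The Epb42 call was also lost with averaged probes and with the methods' t-test after adjustment. Groups of 3 arrays were too small to be tested for outlying samples.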

How the results depend on the processing

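Of 564 values of single members under all alternatives but the matched probe, 531 kept their direction and their side of the threshold, 17 lost a call, 5 gained one and 11 changed sign. For the 6 members other than Ank1 and Ermap it was 410 of 420, with 9 calls lost and 1 change of sign. Some alternatives could change little by design. The replicate block, and leaving out an array of a group outside the comparison, keep the difference of the group means. Dropping the fold minimum can lose no call. These counts therefore do not measure how firm the calls are. With normexp, 3 members were called at 3 dpi against 1 dpi, and 1665, 1149 and 1088 genes in the 3 comparisons. Without the filter on dim probes, 4444 genes were called at 3 dpi against 1 dpi. With only probes well above background on all 9 arrays, 4 members could be tested and 2, 3 and 1 were called, beside 13.1%, 7.19% and 7.39% of 23869 genes. With no minimum fold, 16313, 9337 and 13029 genes were called. Signs changed with the mean of kept probes for Ank1 (-1.09 at 1 dpi, -0.76 at 3 dpi), Ermap (-1.41, -1.2 and 0.21 in the 3 comparisons) and Sptb (-0.01 at 3 dpi against 1 dpi). They changed with the deposited table for Ank1 (-4.01, -2.13) and Ermap (-3.98, -2.66, 1.32). They changed with the probe that matches that table, chosen after seeing the data, for Ank1 (-3.74, -2.15) and Ermap (-3.63, -2.57, 1.06). These changes follow from the choice of probe, and the cause of the calls moved by normexp was not tested. Leaving out 1 array gave 6 to 6, 6 to 7 and 5 to 5 members, and 3568 to 5340, 2343 to 2752 and 2255 to 2858 genes. Same-numbered replicates correlated between -0.11 and 0.13, so the numbers do not pair the arrays. The replicate block gave 6, 7 and 5 members and 4242, 2480 and 2476 genes, and changed no member's call. The dim levels of Epb42, Rhag and Kel at 1 dpi, near the background, limit their folds to bounds.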
